A study of Homo sapiens with 6 samples.

Results

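RAB GTPases are small GTP-binding proteins that mark the membranes of the cell. They were taken here as the rows of the expression table whose symbol is RAB, a number and at most 1 letter from A to F, which gave 63 of the 20388 genes listed. The cells were MHCC-97H, an established line from a human hepatocellular carcinoma, given as wild type in the labels, and were compared in 2 groups. The control group, of 3 libraries, had the solvent DMSO alone for 24 h. The treated group, also of 3 libraries, had GK921, which inhibits transglutaminase 2 (TGM2), at 2 µM for 24 h. Whether the libraries of a group are separate cultures is not stated, and p-values then cover only the spread between libraries, which may be technical. All results concern 1 line, 1 dose and 1 time.

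A RAB protein is switched on by exchange factors that load GTP, recruits effectors such as tethers and motor adaptors to its membrane, and is switched off by GTPase-activating proteins. A prenyl group holds it on the membrane, and GDI proteins carry the inactive form through the cytosol. Each RAB acts on its own set of membranes, from the endoplasmic reticulum and Golgi to endosomes, lysosomes and secretory vesicles. Hepatocytes secrete proteins in bulk and recycle many receptors, and both tasks run through this family.

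Values were FPKM, fragment numbers scaled to transcript length and to the size of the library, so levels can be compared between genes. The absolute depth is unknown, and the steps between low values placed the relative depth of the DMSO libraries at 0.871 to 1 and that of the GK921 libraries at 0.767 to 0.863. The RNA of TGM2, the target of the inhibitor, was at 42.1 ± 0.0265 FPKM in DMSO and at 42.6 ± 0.345 FPKM with the inhibitor (limma adjusted p = 0.71). Every mean here and below is given with its SD over n = 3 libraries. Of 12 markers of liver carcinoma and hepatocytes, 4 reached 1 FPKM in any library, KRT8, KRT18 and HNF4A among them, while ALB, AFP and APOB stayed below 1 FPKM and GPC3 was listed at 0. They summed to 2396 to 2402 FPKM in DMSO and to 1880 to 1939 FPKM after GK921. The keratins KRT8 and KRT18 held most of this sum and went opposite ways. KRT8 was at means of 1633 and 1100 FPKM and KRT18 at means of 740.3 and 786.6 FPKM. Of 6 blood and immune markers 2 reached 1 FPKM, CD68 at means of 109 and 99.7 FPKM and HBB at no more than 1.14 FPKM, and the 6 summed to 104.1 to 113.1 FPKM in DMSO and to 94.0 to 110.3 FPKM after GK921. The 8 endothelial and fibroblast markers summed to 10.9 to 13.5 FPKM in DMSO and 4.63 to 6.6 FPKM after GK921, with CDH5 listed at 0 and DCN at means of 8.34 and 0.953 FPKM. Their part in the results below was not tested.

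Across the family, GK921 was followed by rises and falls of single members in every compartment. Of the 63 genes, 45 passed the limit for testing, 1 FPKM as the average of the 6 libraries, and entered the limma fit. Of these, 24 were higher and 13 lower at an adjusted p under 0.05, and 8 were not called. Among all 11573 genes tested, 46.8% were higher and 29.2% lower (75.9% in all), so the count of RAB genes called lay near the background in both directions. The median log2 change was 0.12 for the tested RAB genes and 0.16 for all tested genes. The log2 scale here is that of FPKM + 1 as deposited, which understates changes of low genes, and subtracting 0.16 gives a change relative to the median gene. Folds are ratios of mean FPKM, and in bulk RNA a change in the mix of cells and a change of RNA per cell cannot be told apart. With libraries rescaled by median ratios, 19 RAB genes were higher and 19 lower, against 4221 and 4374 of all genes, and rises made up 50% of the family's calls and 49.1% of all calls, where they had made up 64.9% and 61.6% on the deposited scale. With quantile normalization they made up 61.1% and 51.9%. Every GK921 library lay on 1 side of every DMSO library for 21 members that were higher and 11 that were lower, where 78% of all tested genes had separate groups (48% higher and 30% lower). A change of at least 2-fold on this scale was called for 5 rises and 3 falls, 17.8% of tested members against 16.1% of all tested genes (9.87% higher and 6.24% lower).

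The members differed widely in level. RAB7A led at 437 ± 10.6 FPKM in DMSO, followed by RAB10, RAB1A, RAB27B, RAB1B, RAB2A and RAB14, and the 10 most abundant members held 62.8% of the family's mean summed FPKM. In all, 12 members had a mean above 100 FPKM, 28 lay from 10 to 100 FPKM, 5 from 1 to 10 FPKM, and 13 were above 0 but below 1 FPKM. The other 5, RAB3C, RAB4B, RAB13, RAB19 and RAB39A, were listed at 0 in every library. RAB4B shares 36.8% of its exon bases with read-through genes on its strand (GENCODE 29) and RAB13 shares 24.8% with an overlapping gene. RAB43 shares 79.3% with a read-through gene and was above 0 in every library. The part of shared exons in the listed zeros was not tested, and a listed 0 may not mean that no RNA was present. The family summed to 3383, 3374 and 3416 FPKM in the DMSO libraries and to 3612, 3680 and 3703 FPKM after GK921, a ratio of means of 1.08. The median coefficient of variation between replicates was 6.54% in DMSO and 6.82% after GK921 for tested members, against 5.63% and 6.01% for all tested genes.

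**Figure D1:**
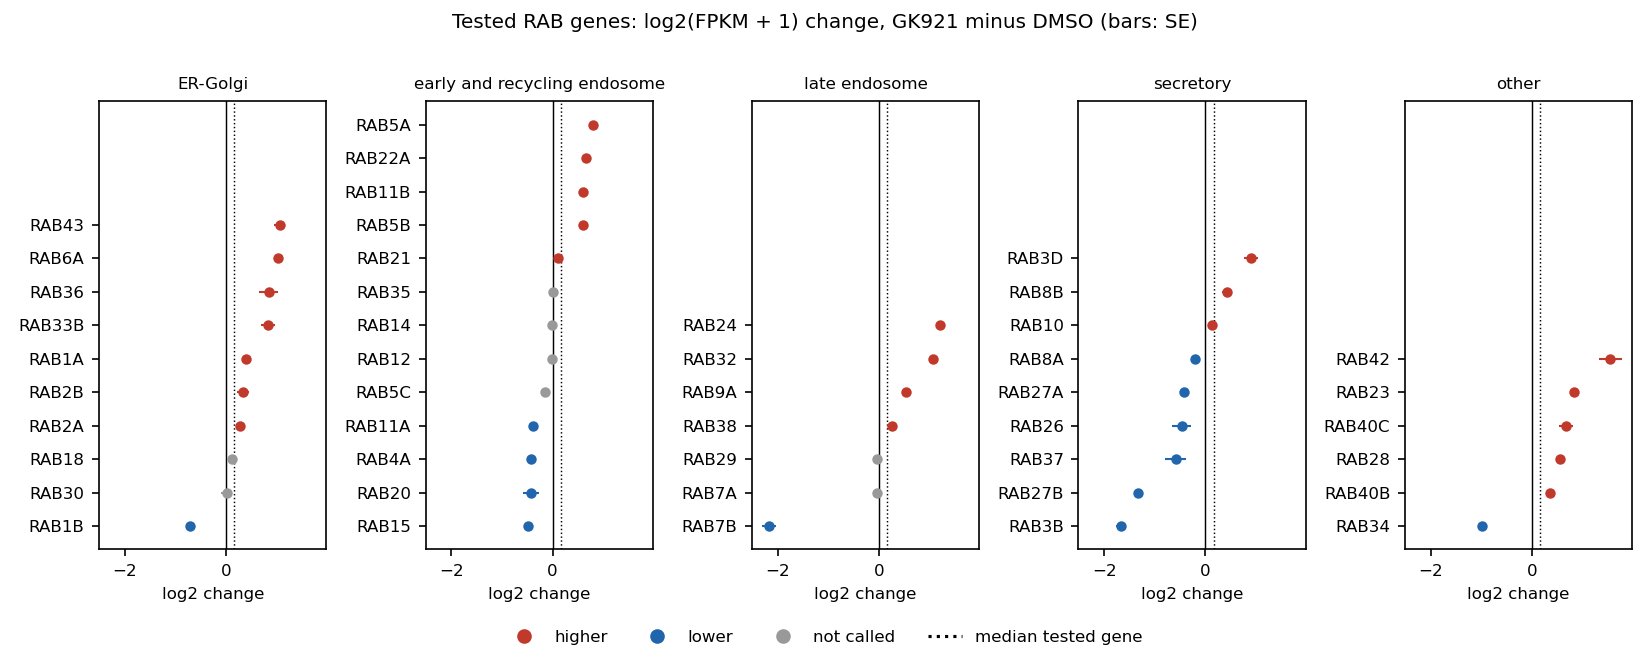
Log2(FPKM + 1) change after GK921 of the 45 tested RAB genes, 1 panel per compartment, with bars for the SE and colour for the call (limma adjusted p under 0.05). Most ER-Golgi points lie right of 0, most secretory points lie left of it, and RAB7B at -2.16 is the farthest from 0; the dotted line is the median tested gene at 0.16.

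By compartment, called members were mostly higher among RABs of the ER and Golgi and mostly lower among those of secretory vesicles. Of 10 tested ER-Golgi members 7 were higher and 1 lower (median log2 change 0.36), and of 7 tested late endosome members 4 were higher and 1 lower (median 0.25). The 13 tested members of early and recycling endosomes divided into 5 higher, 4 lower and 4 not called (median -0.012). The 9 tested secretory members included 3 higher and 6 lower (median -0.42), the lowest median of the groups. All tested genes, for comparison, had 46.8% higher, 29.2% lower and a median of 0.16. These counts come from few genes, and no test between compartments was made. The assignment of each gene to 1 compartment follows textbook use, although several act at more than 1 membrane. RAB34, which acts at the Golgi among other sites and was called lower (log2 change -0.99), is not counted with the ER-Golgi members. With rescaling by median ratios the lower calls stayed at 6 for secretory members and 1 for ER-Golgi members. They became 8 for early and recycling endosomes and 3 for late endosomes. On that scale 37.8% of all tested genes were lower, against 29.2% on the deposited scale. Leaving out 1 library left 4 secretory members called lower, or 3 without DMSO replicate 2, and 2 late endosome members without GK921 replicate 2. Where a change beyond 1.2-fold was required, 2 secretory members were lower and 1 higher, and 2 members of early and recycling endosomes were lower. That test called 31.1% of all tested genes higher and 18.4% lower. As sums over all members of a compartment, listed zeros included, the secretory RABs were at 709, 731 and 719 FPKM in DMSO and at 554, 590.2 and 585 FPKM after GK921. Most of the fall of this sum was that of RAB27B, at means of 203.6 and 80.7 FPKM. RAB10, the most abundant secretory member, was at means of 337.5 and 367.8 FPKM. The secretory RABs made up 21.2% of the family's FPKM in DMSO and 15.7% after GK921. The ER-Golgi sum went the other way, with 890, 887 and 898 FPKM in DMSO and 1067, 1054 and 1083 FPKM after GK921.

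Sequence before the start sites is shown for members with large called changes, with CG content marked for genes that rose and fell. The stretches come from RefSeq (GRCh38.p14), lie within the 250 bases before each start site and outside every exon of GENCODE 29, and belong to the 4 largest rises and the 4 largest falls that have at least 100 such bases. RAB24, RAB43 and RAB34 had larger changes than some members shown, but no stretch of that length. Each stretch shown runs 5′ to 3′ on the strand of the gene, with every CG pair in capitals. The stretch of RAB3D lies inside the gene as GENCODE 29 places it (chr19:11322046-11346270), before a start site that RefSeq gives within that span. The members that rose come first.
RAB42, chr1:28592015-28592199, plus strand: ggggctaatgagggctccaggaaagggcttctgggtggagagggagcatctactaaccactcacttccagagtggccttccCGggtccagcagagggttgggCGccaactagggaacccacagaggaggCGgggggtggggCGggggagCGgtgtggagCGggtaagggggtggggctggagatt
RAB32, chr6:146543583-146543692, plus strand: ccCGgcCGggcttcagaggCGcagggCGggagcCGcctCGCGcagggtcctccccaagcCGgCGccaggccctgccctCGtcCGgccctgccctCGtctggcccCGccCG
RAB6A, chr11:73761138-73761324, minus strand: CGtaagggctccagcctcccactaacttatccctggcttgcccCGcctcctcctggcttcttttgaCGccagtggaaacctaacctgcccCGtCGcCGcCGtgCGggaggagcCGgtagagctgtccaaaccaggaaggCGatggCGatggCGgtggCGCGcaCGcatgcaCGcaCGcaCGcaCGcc
RAB3D, chr19:11339669-11339907, minus strand: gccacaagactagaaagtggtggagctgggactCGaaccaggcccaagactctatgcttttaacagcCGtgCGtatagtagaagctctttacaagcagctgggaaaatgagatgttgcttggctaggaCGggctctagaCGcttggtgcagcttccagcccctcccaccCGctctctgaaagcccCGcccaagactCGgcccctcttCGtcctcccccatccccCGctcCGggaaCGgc
The members that fell follow.
RAB7B, chr1:206003462-206003645, minus strand: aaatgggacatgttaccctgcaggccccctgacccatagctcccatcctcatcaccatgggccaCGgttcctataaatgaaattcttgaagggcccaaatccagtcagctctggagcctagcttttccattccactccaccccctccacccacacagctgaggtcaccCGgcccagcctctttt
RAB3B, chr1:51990765-51990950, minus strand: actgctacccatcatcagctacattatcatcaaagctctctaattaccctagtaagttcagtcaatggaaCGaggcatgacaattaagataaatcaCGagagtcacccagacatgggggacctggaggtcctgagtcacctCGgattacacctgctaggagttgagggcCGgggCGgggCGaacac
RAB27B, chr18:54717607-54717856, plus strand: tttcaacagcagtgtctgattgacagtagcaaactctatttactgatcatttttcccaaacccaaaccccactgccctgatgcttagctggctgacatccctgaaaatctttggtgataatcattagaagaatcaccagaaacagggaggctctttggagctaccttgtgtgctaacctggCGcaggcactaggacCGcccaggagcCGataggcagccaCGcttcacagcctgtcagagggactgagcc
RAB1B, chr11:66268389-66268532, plus strand: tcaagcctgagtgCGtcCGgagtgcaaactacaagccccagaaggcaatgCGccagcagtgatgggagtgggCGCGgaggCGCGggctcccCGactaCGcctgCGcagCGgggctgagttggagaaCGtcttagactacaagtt

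Per 100 bases shown, the rising gene RAB6A had 10.2 CG pairs, RAB32 had more, with 14 in 110 bases, RAB3D had 5.02 and RAB42 had 3.24. The falling genes RAB7B, RAB27B and RAB3B had 1.09, 1.6 and 3.23, and RAB1B had 8.33. The stretches differ in length (110 to 250 bases) and end 0 to 140 bases before the start site. These densities are therefore not like for like. In the full windows of 300 bases, which end 50 bases past the start site, the median was 32 CG pairs for 19 members called higher (7 to 45) and 23 for 9 called lower (4 to 38). Over all tested genes with an entry the medians were 26 for 4391 called higher and 27 for 2755 called lower. Of 5 tested members with at most 12 CG pairs in 300 bases, a limit chosen after values were seen, 3 were lower (RAB7B, RAB27B and RAB34), 1 was higher (RAB42) and RAB29 was not called. Of all tested genes under that limit 46.2% were higher and 29.3% lower. Entries were found for 50 of the 63 members, and for 41 of these the bases just after the start were found in a GENCODE transcript of the gene on the same strand.

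HSPA5, the main chaperone of the ER, was at 1038 ± 13.3 FPKM in DMSO and at 8127 ± 113 FPKM with GK921, and its part in the changes of RAB genes was not tested. Motifs of ER stress and related factors were searched for on both strands of the 300-base windows. The ER stress element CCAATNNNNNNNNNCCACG was in 0 of the 35 windows of tested members, against 0.149% of those of all tested genes. The XBP1 and ATF6 core TGACGTG was in 0 of the 35 (2.55% of tested genes) and the amino acid response element TGATGNAA in 1, that of RAB28 (1.7%). The E-box CACGTG, its own reverse complement, was in 5, those of RAB4A, RAB5A, RAB21, RAB24 and RAB29, against 10.2% of all tested genes. A match is no more than these letters in this window, and elements may lie outside it.

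Among RABs of the ER and Golgi, RAB6A, RAB43 and RAB36 had the largest rises and RAB1B was the member that fell. RAB6A (chr11:73675638-73761137, minus strand, GENCODE 29) runs transport within the Golgi and back to the ER. It was at 78.9, 78.5 and 81.9 FPKM in DMSO and at 157, 166 and 166 FPKM after GK921. Its groups lay far apart, a rise of 2.04-fold (log2 change 1.02 ± 0.038 SE, limma adjusted p = 2.62e-08). Of the 50-base words in its transcripts, 14.2% also occur in RAB6C and RAB6D, which were at 0.35 and 0.257 FPKM in DMSO and 0.403 and 0.357 FPKM after GK921. RAB43, a Golgi RAB, was at 9.34, 12.2 and 9.54 FPKM in DMSO and at 21.2, 21.1 and 25.2 FPKM after GK921 (2.17-fold, adjusted p = 2.40e-05). It shares 79.3% of its exon bases with the read-through gene ISY1-RAB43, listed at 0 in every library, with the assignment of shared reads not given in the sources used here. RAB36 was lower in level, at 0.88, 0.94 and 1.22 FPKM in DMSO and 3.57, 1.83 and 2.56 FPKM after GK921 (2.62-fold, adjusted p = 0.00289). Every GK921 library of RAB43 and RAB36 lay above every DMSO library.

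RAB1A and RAB1B, close paralogs that both drive transport from the ER to the Golgi, moved in opposite directions. RAB1A was at 315, 314 and 311 FPKM in DMSO and at 407, 414 and 419.6 FPKM after GK921, a rise of 1.32-fold with tight groups (log2 change 0.40 ± 0.025, limma adjusted p = 7.55e-07). RAB1B was at 196, 199 and 199 FPKM in DMSO and at 135, 113 and 116 FPKM after GK921, a fall of 1.63-fold (log2 change -0.70 ± 0.060, adjusted p = 5.93e-06). For both genes the groups were apart. The share of RAB1B in their sum went from 38.7% ± 0.31 to 22.7% ± 1.9, and the sum from 511 to 535 FPKM. RAB1B shares 42.6% of its exon bases with genes on the opposite strand and RAB1A 22.9% (strand handling: not given in the sources used here). RAB2A, of the ER-Golgi boundary, rose 1.21-fold from 187 ± 0.0757 to 226 ± 9.28 FPKM, with both groups apart. Its paralog RAB2B was at 13.8 to 15 FPKM in DMSO and 14.6 to 20.6 FPKM after GK921, overlapping groups with an adjusted p of 0.0311. The RAB2B call was lost without DMSO replicate 2 or 3 (adjusted p = 0.0827 and 0.0724), without GK921 replicate 1 or 2 (0.109 and 0.104), and with each of the 3 rescalings. RAB33B, which acts at the Golgi and in autophagy, rose 1.84-fold from 7.44 ± 1.76 to 13.7 ± 1.18 FPKM. RAB18, of the ER and lipid droplets, was at 63.9 ± 2.71 and 68.9 ± 3.27 FPKM (adjusted p = 0.0806, and 0.0449 without DMSO replicate 3). RAB30 was at 14.9 ± 2.18 and 14.95 ± 1.28 FPKM, with an adjusted p of 0.91. Below the limit for testing, RAB6B, RAB41 and RAB39B overlapped between the groups, and RAB33A was at 0 to 0.12 FPKM in DMSO and 0.3 to 0.4 FPKM after GK921.

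**Figure D2:**
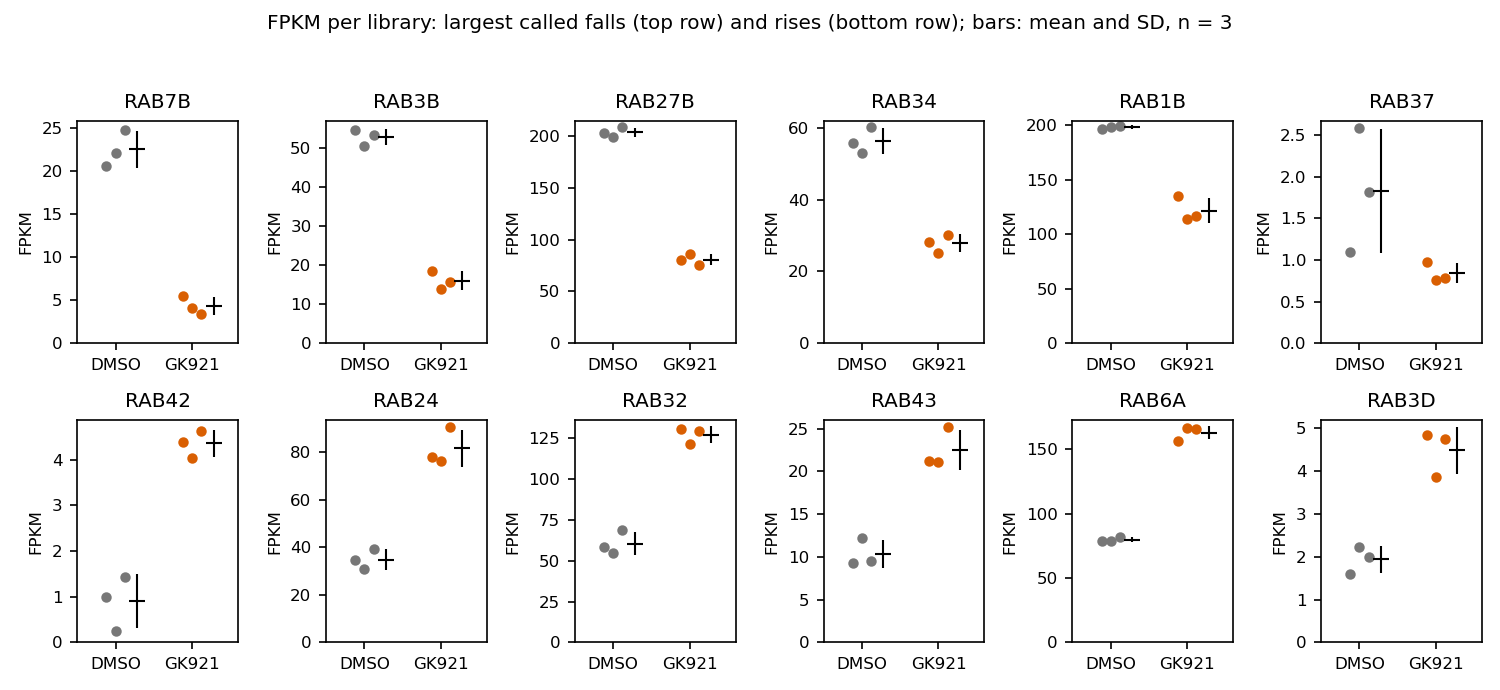
FPKM in each library (points) with mean and SD (bars, n = 3) of the 6 tested members with the largest called falls (top row) and the 6 with the largest called rises (bottom row), each panel with its own axis from 0. The groups are apart in every panel, narrowly for RAB37 and widely for RAB27B.

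In early and recycling endosomes, the abundant members divided by paralog. RAB5A, which organises fusion of early endosomes, was at 91.8, 101.2 and 93.3 FPKM in DMSO and at 159, 168 and 172 FPKM after GK921. It rose 1.75-fold with no overlap (log2 change 0.80 ± 0.047, limma adjusted p = 5.18e-07). RAB5B rose 1.52-fold from 40.9 ± 1.67 to 62.1 ± 1.06 FPKM, while RAB5C was at 44.7 ± 4.42 and 39.8 ± 0.834 FPKM (adjusted p = 0.0636). RAB5C was called lower without DMSO replicate 2 (adjusted p = 0.00271) and with each rescaling, at 0.00215 by median ratios. It shares 28.8% of its exon bases with another gene on its strand. As a share of the RAB5 sum, RAB5C went from 24.7% ± 2.6 to 14.8% ± 0.58 and RAB5A from 52.7% ± 2.5 to 62% ± 1.2. RAB22A, another early endosome RAB, was at 99.1, 93.8 and 80.8 FPKM in DMSO and at 144.5, 139.6 and 148 FPKM after GK921 (1.58-fold higher, adjusted p = 2.28e-05). Its 3 GK921 libraries all lay above the highest DMSO library.

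The RAB11 paralogs of the recycling endosome went opposite ways. RAB11B was at 46.5, 45.9 and 45.6 FPKM in DMSO and at 72.1, 67.9 and 70.9 FPKM after GK921 (1.53-fold higher, log2 change 0.60 ± 0.040, limma adjusted p = 1.26e-06). RAB11A was at 159.6, 169 and 156.5 FPKM in DMSO and at 119, 133 and 120.2 FPKM after GK921 (1.3-fold lower, log2 change -0.38 ± 0.050, adjusted p = 0.000106). Neither gene had overlapping groups. RAB11B made up 22.2% ± 0.71 of the RAB11 sum in DMSO and 36.2% ± 2.1 after GK921, while their sum, with the epithelial relative RAB25 near 0, was 208 ± 6.66 and 195 ± 5.71 FPKM. RAB4A, of the fast recycling route, which shares 19.6% of its exon bases with SPHAR, fell 1.35-fold from 51.0 ± 5.46 to 37.7 ± 1.58 FPKM. RAB15 was at 14.5, 15.9 and 14.5 FPKM in DMSO and at 11.6, 10.1 and 9.61 FPKM after GK921 (1.44-fold lower, adjusted p = 0.000611), again without overlap. RAB20 was at 10.4 to 14.8 FPKM in DMSO and 7.27 to 10.8 FPKM after GK921, overlapping groups called lower at 0.0314. That call was lost without DMSO replicate 2 (adjusted p = 0.113) or GK921 replicate 1 or 3 (0.108 and 0.0772).

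Several abundant endosomal members stayed within a narrow range. RAB14, which acts between the Golgi and endosomes, was at 164, 165 and 170.1 FPKM in DMSO and at 163, 158.5 and 174 FPKM after GK921, with the groups interleaved (limma adjusted p = 0.788). RAB35 and RAB12 also overlapped, at 86.5 ± 2.21 and 87.5 ± 3.93 FPKM and at 44.8 ± 2.71 and 44.2 ± 2.6 FPKM. With median-ratio scaling, however, RAB14, RAB35 and RAB12 were called lower (adjusted p = 0.00192, 0.00814 and 0.0194), and RAB14 also with upper-quartile scaling (0.0346). RAB21, linked to integrin traffic, was at 112 to 117 FPKM in DMSO and 117 to 128 FPKM after GK921, called higher at 0.0391 on the deposited scale and at a log2 change of -0.066, not called, with median-ratio scaling. The RAB21 call was also lost without DMSO replicate 1 or 2 (0.0893 and 0.112) or GK921 replicate 2 or 3 (0.122 and 0.103). RAB17, a RAB of epithelial recycling, was below the limit, at 0.29 to 0.82 FPKM in DMSO and 1.07 to 1.48 FPKM after GK921, and RAB31 was at 0 to 0.45 FPKM.

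**Figure D3:**
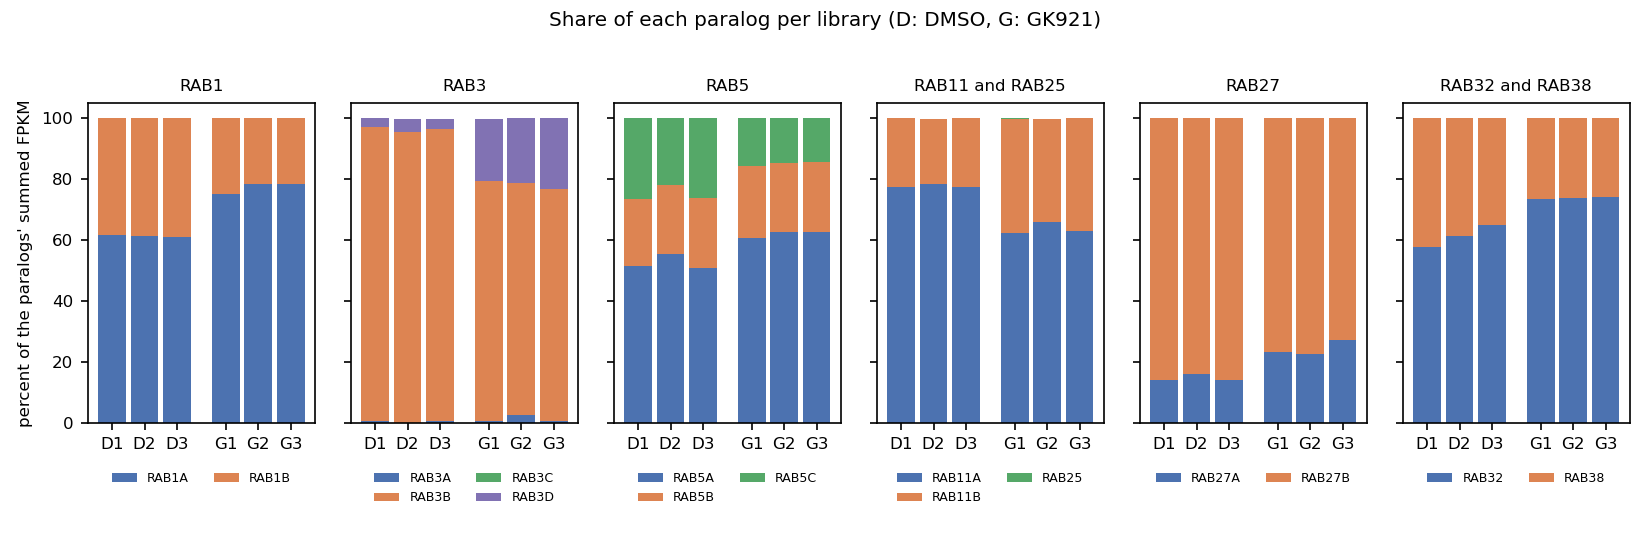
Percent of the summed FPKM of 6 paralog groups that each member holds, 1 stacked bar per library. RAB1A, RAB3D, RAB5A, RAB11B, RAB27A and RAB32 hold a larger share in each of the 3 GK921 libraries than in any DMSO library.

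Among late endosome and lysosome RABs, RAB7B fell more than any other tested member, and RAB24 and RAB32 rose most. RAB7B (chr1:205976740-206003461, minus strand, GENCODE 29) acts in transport from late endosomes to the Golgi. It was at 20.6, 22.1 and 24.8 FPKM in DMSO and at 5.44, 4.09 and 3.37 FPKM after GK921. The groups lay far apart, 5.24-fold lower by ratio of means (log2 change -2.16 ± 0.14, limma adjusted p = 9.11e-07). RAB7A, the main RAB of fusion with lysosomes, was at 446.5, 425.5 and 439 FPKM in DMSO and at 412, 447.5 and 412 FPKM after GK921, with the groups interleaved (log2 change -0.045, adjusted p = 0.3). Its direction depended on the scaling, at -0.22 and called lower by median ratios (0.000626), lower by upper quartiles (0.00914), and 0.12 and called higher with quantile normalization (0.0189), and it was called lower without GK921 replicate 2 (0.033). RAB7B held 4.9% ± 0.47 of the sum of the pair in DMSO and 1.01% ± 0.26 after GK921.

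RAB32, of lysosome-related organelles, was at 58.2, 54.8 and 68.6 FPKM in DMSO and at 131, 121 and 129.7 FPKM after GK921 (2.1-fold higher, log2 change 1.06 ± 0.076, limma adjusted p = 1.90e-06). Its close relative RAB38 was at 34.4 to 42.5 FPKM in DMSO and 43.1 to 47.5 FPKM after GK921, with separate but adjoining groups (adjusted p = 0.0143). The RAB38 call was lost without DMSO replicate 2 (0.0509) or GK921 replicate 1 (0.0513) and with each rescaling. RAB24, linked to autophagy, was at 34.5, 30.7 and 39.2 FPKM in DMSO and at 78.0, 76.3 and 90.6 FPKM after GK921 (2.35-fold higher, adjusted p = 3.06e-06). RAB24 shares 44.8% of its exon bases with MXD3 on the same strand. MXD3 was at 3.52 ± 0.636 FPKM in DMSO and 1.74 ± 0.309 FPKM after GK921, so the neighbour was low and fell while RAB24 rose. RAB9A, which returns mannose 6-phosphate receptors to the Golgi, was at 44.2, 38.3 and 43.6 FPKM in DMSO and at 62.9, 66.5 and 54.6 FPKM after GK921 (1.46-fold higher, adjusted p = 0.00028). The groups of RAB24, RAB32 and RAB9A did not overlap. RAB29, a lysosomal stress RAB that recruits the kinase LRRK2, was at 39.2 ± 4.25 and 38.1 ± 0.67 FPKM (adjusted p = 0.695, and 0.0308, lower, with median-ratio scaling). RAB9B reached 0.16 FPKM in 1 library.

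RABs of secretory vesicles held the largest falls of abundant members. RAB27B (chr18:54717860-54895516, plus strand, GENCODE 29) docks secretory granules and exosome-bearing compartments at the plasma membrane. It was at 203, 199 and 208 FPKM in DMSO and at 80.7, 85.9 and 75.5 FPKM after GK921. No library of either group came near the other, and the level was 2.52-fold lower (log2 change -1.33 ± 0.048, limma adjusted p = 2.40e-08). RAB27A, its paralog in the same processes, was at 33.3, 37.7 and 33.7 FPKM in DMSO and at 24.2, 25.2 and 28.0 FPKM after GK921 (1.36-fold lower, log2 change -0.42 ± 0.071, adjusted p = 0.000516). Its groups were closer but did not overlap. Both RAB27 genes fell, with a sum of 239 ± 3.15 FPKM in DMSO and 107 ± 4.07 FPKM after GK921, and RAB27A went from 14.7% ± 1.1 to 24.3% ± 2.4 of it.

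RAB3 proteins control regulated exocytosis, and their main member here was RAB3B. It was at 54.6, 50.5 and 53.4 FPKM in DMSO and at 18.6, 13.8 and 15.7 FPKM after GK921 (3.29-fold lower, log2 change -1.67 ± 0.094, limma adjusted p = 4.06e-07). RAB3D, of secretory granules in exocrine cells, was at 1.61, 2.24 and 1.99 FPKM in DMSO and at 4.85, 3.86 and 4.75 FPKM after GK921 (2.3-fold higher, adjusted p = 0.00021). The groups were apart for both genes, low after GK921 for RAB3B and high for RAB3D. RAB3D shares 23.8% of its exon bases with genes on the opposite strand. It made up 3.56% ± 0.7 and then 21.6% ± 1.3 of the RAB3 sum, which itself was 55 ± 2.04 FPKM in DMSO and 20.8 ± 2.73 FPKM with GK921. RAB3A was at 0 to 0.48 FPKM and RAB3C was listed at 0.

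Other secretory members changed less or were low. RAB37 was at 1.09, 2.58 and 1.82 FPKM in DMSO and at 0.98, 0.76 and 0.78 FPKM after GK921 (limma adjusted p = 0.0249), and RAB26 at 1.66 to 2.21 FPKM and 0.64 to 1.52 FPKM (0.0419), each with groups that only just missed each other. The RAB37 call was lost without DMSO replicate 2 or 3 (0.0949 and 0.0631) or GK921 replicate 2 or 3 (0.0628 and 0.0613). RAB26 lost its call without DMSO replicate 1, 2 or 3 (0.125, 0.0872 and 0.0508) or GK921 replicate 1 or 3 (0.0552 and 0.128). RAB10, which moves glucose transporters to the plasma membrane, was at 324, 349.5 and 339 FPKM in DMSO and at 346, 386.5 and 371 FPKM after GK921, overlapping groups called higher at 0.0321. With median-ratio scaling its log2 change was -0.053, and the call was lost without DMSO replicate 1 or 3 (0.113 and 0.0633) or GK921 replicate 2 or 3 (0.108 and 0.0806). RAB8A, of Golgi to plasma membrane transport, overlapped at 66.7 to 78.1 FPKM and 59.1 to 71.7 FPKM (called lower at 0.0487). It lost that call without DMSO replicate 1 or 2 (0.148 and 0.137) or GK921 replicate 1 or 2 (0.129 and 0.16). RAB8B, its paralog, rose 1.38-fold from 10.9 ± 0.882 to 15.1 ± 1.83 FPKM with separate groups (adjusted p = 0.00352). RAB8A shares 37.8% of its exon bases with a gene on the opposite strand.

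Of the members placed in no compartment, 5 of 6 tested were higher and 1 was lower. RAB34, which acts at the Golgi and in building cilia, was the one that fell, from 55.9, 53.0 and 60.4 FPKM in DMSO to 28.3, 25.2 and 30.2 FPKM after GK921 (2.02-fold, log2 change -0.99 ± 0.074, limma adjusted p = 2.49e-06). RAB23, which restrains Hedgehog signalling, was at 25.4, 24.4 and 26.6 FPKM in DMSO and at 49.9, 45.9 and 42.8 FPKM after GK921 (1.82-fold higher, adjusted p = 3.25e-06). Neither RAB34 nor RAB23 had overlapping groups. It shares 57.7% of its exon bases with BAG2 on the opposite strand, and BAG2 was at 80.9 ± 4.51 and 101 ± 5.21 FPKM, so reads of the pair may not be told apart. RAB28, a ciliary RAB, rose 1.48-fold from 22.2 ± 1.37 to 32.8 ± 1.42 FPKM. RAB42 was at 1, 0.26 and 1.43 FPKM in DMSO and at 4.39, 4.04 and 4.63 FPKM after GK921 (log2 change 1.55 ± 0.22, adjusted p = 0.000198). No tested member rose more on the log2 scale, and 6.79% of the 50-base words of RAB42 also occur in other genes. RAB40C, of a subfamily that joins ubiquitin ligases, was at 7.81, 11.7 and 8.39 FPKM in DMSO and at 16.9, 13.3 and 15.6 FPKM after GK921 (1.64-fold higher, adjusted p = 0.00217). RAB40B rose 1.3-fold from 20.2 ± 0.631 to 26.3 ± 3.07 FPKM, a call lost with median-ratio scaling (0.0573). RAB40A lay between 0.1 and 0.57 FPKM, and RAB44 reached 0.03 FPKM in 1 library.

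The genes that load, unload and read RAB proteins were mostly higher. Of 34 tested exchange factors 25 were higher and 3 lower (median log2 change 0.40), against 46.8% higher and 29.2% lower of all tested genes. Of 33 tested GTPase-activating proteins 21 were higher and 8 lower (median 0.44), and of 37 tested effectors 22 were higher and 7 lower (median 0.34). With median-ratio scaling the calls higher and lower were 20 and 4 for exchange factors, 18 and 10 for GTPase-activating proteins and 18 and 10 for effectors. Of all tested genes, 36.5% were then higher and 37.8% lower. With quantile normalization 6 exchange factors were lower, against 35.2% of all tested genes. Where a change beyond 1.2-fold was required, the calls were 15 and 1 for exchange factors, 15 and 5 for GTPase-activating proteins and 17 and 4 for effectors. Of all tested genes, 31.1% were higher and 18.4% lower by that test. Prenylation and membrane extraction genes divided evenly, with 3 of 8 higher and 3 lower (median -0.011), or 2 and 1 beyond 1.2-fold. On a list of kinases and a phosphatase linked to RAB proteins, directly or indirectly, LRRK1 and LRRK2 were below the limit for testing. Their means were 0.0467 and 0.557 FPKM in DMSO and 0.09 and 0.5 FPKM after GK921. Of the 3 tested genes 2 were higher and 0 lower, PINK1 at 1.81-fold and TBK1 at 1.12-fold. The phosphatase PPM1H, at 16.8 and 17.2 FPKM, was not called by limma (adjusted p = 0.827). Of these 3, 1 was called higher with median-ratio scaling and the other rescalings, beyond 1.2-fold, and without DMSO replicate 3, GK921 replicate 1 or GK921 replicate 2.

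**Figure D4:**
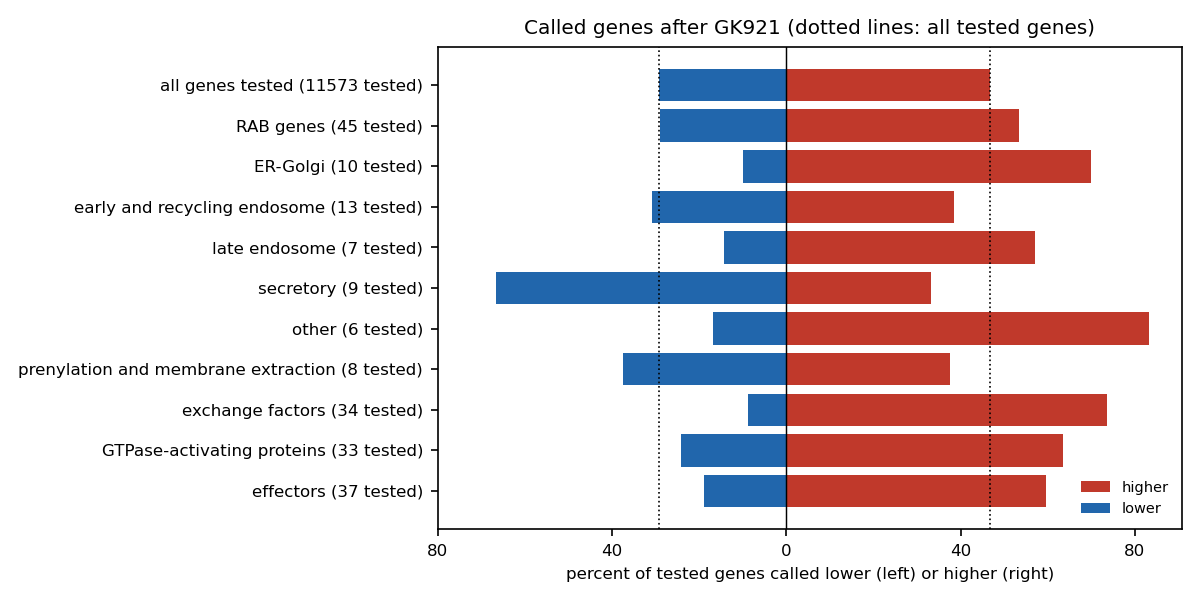
Percent of tested genes called higher (right) and lower (left) by limma in all tested genes, the RAB genes, each compartment and 4 lists of RAB partners. The secretory group has the longest bar to the left (66.7%), and exchange factors reach 73.5% to the right, against 29.2% and 46.8% for all tested genes (dotted lines).

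Partners of the members described above moved in both directions. Among exchange factors, RAB3IL1, named for its binding to RAB3A and acting on RAB8, rose 3.34-fold to 35.3 FPKM, DENND3 rose 2.28-fold and DENND1C fell 4.68-fold from 3.43 to 0.733 FPKM. Of the GTPase-activating proteins, EVI5L rose 4.1-fold, TBC1D8B 2.7-fold and TBC1D9B fell 2.21-fold. Among effectors, SYTL2 and SYTL5, which bind RAB27, fell 5.45-fold and 10.6-fold, from 38.8 to 7.12 FPKM and from 3.26 to 0.307 FPKM. On the log2(FPKM + 1) scale the largest rise on this list was that of MICALL1, a recycling endosome adaptor, at 1.26 (12.2 to 30.5 FPKM). Among the other RAB27 effectors on the list, MLPH, UNC13D, EXPH5 and SYTL1 rose 1.32-fold, 1.76-fold, 2.19-fold and 2.72-fold, RPH3AL fell 1.35-fold, SYTL4 was not called (adjusted p = 0.0813) and SYTL3 and MYRIP were too low to test. The Golgi tethers USO1, GOLGA2, GOLGA5 and GCC2 rose 2.07-fold, 1.95-fold, 2.36-fold and 1.19-fold. Of the RAB7 effectors, RILP, OSBPL1A, FYCO1 and RUBCN rose 2.34-fold, 1.45-fold, 1.54-fold and 2.33-fold, and PLEKHM1 was at 27 and 26.7 FPKM (adjusted p = 0.804). These 3 subsets were set apart after their values were seen. RABAC1, a membrane receptor that accepts prenylated RABs, rose 2.09-fold from 66.9 to 139.9 FPKM. GDI2, which carries inactive RABs through the cytosol, fell 1.3-fold, and RABGGTA, the alpha subunit of the enzyme that prenylates RABs, fell 1.37-fold. All of these rises and falls passed the limma threshold.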

How the data were processed

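RNA of 6 libraries was measured by RNA sequencing. The submitters' processing notes list FastQC 0.11.5, HISAT2, featureCounts and edgeR, and give hg38 as the build, but not the role of each tool. The authors deposited FPKM values per gene symbol, a unit taken from the name of the table, written with at most 2 decimals. The annotation and the strand setting: not given in the sources used here. Deposited values were taken as they stand. The test was limma 3.58.1 (R 4.3.3) on log2 of FPKM plus 1, with treatment as the only term and an intensity trend, run on the 11573 genes that averaged 1 FPKM or more, with Benjamini-Hochberg adjustment over all of them. Printed folds are ratios of mean FPKM.

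The RAB genes, their compartments and the partner lists were chosen with earlier results of these data known, and lists are described by counts and medians only. Per-library values are given for the most abundant member and up to 4 called members of each compartment, those with the largest log2 changes, both directions represented where both had calls, and for paralogs of these. Up to 3 called genes of each partner list were named in the same way, and others, such as GDI2, after their values were seen. Some genes that these rules name are not reported here. Positions and shared sequence came from GENCODE 29 (GRCh38) and promoters from RefSeq (GRCh38.p14); the authors' annotation may differ. Exon sharing counts bases of all annotated exons, and shared words were of 50 bases. Relative depth came from 15 pairs of libraries, the most common ratio of low values being taken as equal read numbers. The fit was tested on simulated data for GK921 against DMSO (11573 genes, 50 changed at each size). It recovered 20% at 1.2-fold, 58% at 1.5-fold, 86% at 2-fold and 98% at 4-fold, with 1.5% false among its calls. Only 200 genes were changed there, while 75.9% of tested genes were called in the data. These rates therefore do not carry over to the calls reported here. The simulated spread was that between libraries only. As alternatives, other pseudocounts and expression limits were used, as were 3 rescalings, leaving out each library, a block for the replicate number, no trend, array weights and a test against a 1.2-fold change.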

Additional observations from a re-analysis of the deposited data

How the results depend on the processing

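Of 37 called RAB genes, 24 (17 higher and 7 lower) kept their direction and call under every alternative that gave them a value. When a change beyond 1.2-fold was required, limma's treat called 3595 genes higher and 2135 lower, among them 17 and 7 RAB genes. Leaving out 1 library gave 5151 to 5228 genes higher and 3209 to 3279 lower, and 21 to 23 and 10 to 12 RAB genes. The log2 change of RAB30 became -0.15 with median-ratio scaling, -0.073 with upper quartiles and -0.14 with quantile normalization, and that of RAB35 -0.16, -0.076 and -0.020. With median ratios alone, RAB18, RAB21 and RAB10 became -0.068, -0.066 and -0.053, and with quantile normalization RAB7A became 0.12. Without 1 library, the log2 change of RAB29 ranged from -0.12 to 0.032, RAB30 from -0.10 to 0.086, RAB35 from -0.012 to 0.052, RAB12 from -0.067 to 0.029 and RAB14 from -0.050 to 0.016. The replicate numbers were not found to pair the libraries: deviations from the group means of same-numbered libraries correlated at 0.0305, 0.0473 and -0.00207. With the replicate number as a block, 25 RAB genes were higher and 13 lower, and 5351 and 3355 of all genes. RAB8A then lost its call (limma adjusted p = 0.0838), and RAB18 and RAB5C gained one (0.0456 and 0.0464). Depth limits the 13 members between 0 and 1 FPKM, which were not tested.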
